A study of Mus musculus with 6 samples.

Results

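The 9 genes described here encode subunits of the AMPA and NMDA receptors, the ionotropic glutamate receptors of excitatory synapses: Gria1, Gria2, Gria3, Gria4, Grin1, Grin2a, Grin2b, Grin2d and Grin3a. They were taken by name from the unstranded gene counts, and are 9 of 48709 genes in the files. Of the 9, 8 passed the filter on low counts and were among the 15385 genes tested, and Grin2d did not. The tissue was neocortex of E15.5 mouse embryos (an embryonic day in mid-neurogenesis) of strain C57BL/6, and its polyadenylated RNA was sequenced. The control group held 3 wild-type embryos (WT), and the other group held 3 embryos that carry Rest with exon 4 deleted on 1 of the 2 alleles, Rest(+/deltaExon4), called Rest_het below. The study asked how cortical RNA differs between these genotypes, and each library came from a separate mouse whose litter the labels do not state.

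AMPA receptors are tetramers built from GluA1 to GluA4, the products of Gria1 to Gria4, and carry the fast excitatory current. Edited GluA2 keeps calcium out of the channel, so the relation between Gria2 and the other subunits bears on what the receptor lets through. NMDA receptors need the obligatory subunit GluN1, encoded by Grin1, together with GluN2 subunits that bind glutamate. In embryonic cortex the main GluN2 gene is Grin2b, while Grin2a is known to become prominent after birth. REST is a zinc-finger repressor that binds an element called RE1 in many neuronal genes, and Gria2 and Grin1 are textbook examples of genes that carry one.

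The RE1 letters were searched in the sequence around the start sites, since the deleted allele is one of REST. The search used TTCAGCACC, 2 free bases and GGACAG on both strands, which fixes 15 letters. RefSeq promoters of GRCm38.p6, each 250 bases before to 50 after the start, were at hand for 4 of the 9 genes: Gria2, Gria4, Grin1 and Grin2d. Gria2 matched with 1 mismatch, which 0.0579% of 32841 promoters reached. The match lies at chr3:80802989-80803005, from 170 to 154 bases before the start of Gria2, on the strand opposite to the gene. Its mismatch is C3T, with the searched base first and positions counted from 1 at the 5′ end of the searched letters. The search passed over sites with many mismatches in TTCAGCACC. Among the sites it scored, the best of Gria4, Grin1 and Grin2d in these windows had 6, 6 and 7 mismatches. The 250 bases before the Gria2 start, chr3:80802836-80803085 on the minus strand, are shown 5′ to 3′ with the match in capitals, followed by the element of Gria2 read on its own strand.

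Gria2 upstream: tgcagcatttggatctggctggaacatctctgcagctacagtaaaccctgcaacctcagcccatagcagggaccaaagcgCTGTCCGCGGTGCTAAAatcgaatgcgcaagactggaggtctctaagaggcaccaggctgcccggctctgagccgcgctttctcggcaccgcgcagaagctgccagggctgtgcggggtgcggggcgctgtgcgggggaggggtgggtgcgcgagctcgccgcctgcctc

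Gria2 element: TTTAGCACCgcGGACAGcgct

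Grin1 held the element past the start site, outside the promoter window. All 8 of its coding transcripts in GENCODE M21 had an exact match within their first 300 bases, at chr2:25319014-25319034 in GRCm38. The match stands in the 5′ untranslated part of the first exon, and reads on the same strand as the gene. An exact match within the first 300 bases was found for 5 of 21877 protein-coding genes (0.0229%). The other 8 genes had no transcript with at most 1 mismatch there. The Grin1 element is shown with the searched letters in capitals.

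Grin1 element: TTCAGCACCtcGGACAGcacc

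Letters that match are a description of the sequence, and binding was not measured.

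Gene reads per library ran from 17835117 to 20753653. Rest itself measured 21.03, 19.7 and 21.1 CPM (counts relative to the TMM-scaled library size) in the WT and 16.7, 19.0 and 18.6 CPM in the Rest_het libraries. These groups did not overlap, but the log2 fold change of -0.19 had an edgeR adjusted p of 0.49, and a total over all exons does not check the deletion. The libraries also differed in sequences that the genotype labels do not name, and whether these belong to the Rest allele is not stated there. Reads of a LacZ transgene numbered 27, 51 and 43 in WT and 0 in each Rest_het library, while Cre-ERT2 reads numbered 0 in each WT library and 10, 16 and 17 in Rest_het. What goes with these sequences cannot be told apart from the Rest genotype in any comparison below. Of the tested genes, edgeR called 10 (0.065%) higher and 9 (0.0585%) lower in Rest_het at an adjusted p under 0.05, and the median log2 fold change was 0.0054.

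None of the receptor genes passed the test. Called by edgeR were 0 of 8 tested members, 0 higher and 0 lower, where of all tested genes 0.123% were, 0.065% higher and 0.0585% lower, and DESeq2 called 0 of the 7 members to which it gave an adjusted p. An edgeR p under 0.05 before adjustment belonged to 2 of 8, beside 11.7% of all tested genes. These were Gria1 on the higher side (6.98% of all tested genes) and Gria2 on the lower side (4.72%). The 3 values of one group lay wholly above those of the other for 3 of the 8, Gria1, Gria2 and Grin1. Of all tested genes 19.3% showed such separation, 10.4% with Rest_het higher, as Gria1, and 8.94% with it lower, as Gria2 and Grin1. The members' median log2 fold change was -0.054, with 4 above and 4 below 0. In bulk tissue, fewer cells of a type and less RNA per cell cannot be told apart.

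**Figure D1:**
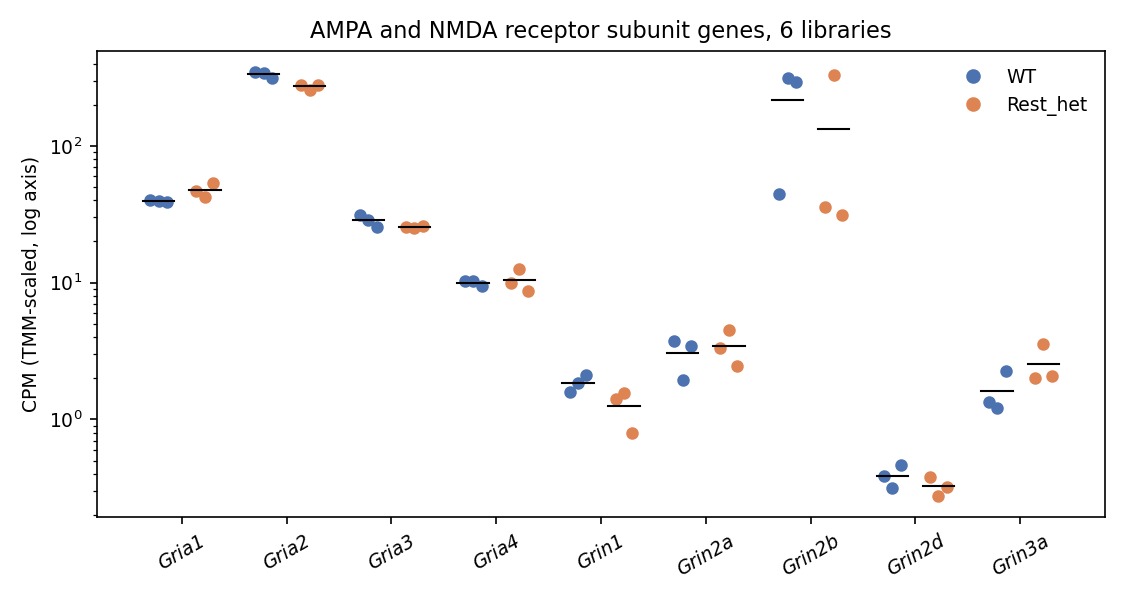
TMM-scaled CPM (log axis) of the 9 receptor genes, 1 point per library and a bar at each group mean (3 WT, 3 Rest_het). Gria2 and Gria1 do not overlap between genotypes, Gria1 being more spread in Rest_het than in WT, while Grin2b falls into a low and a high level within each genotype.

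Gria2, which encodes the subunit that sets calcium permeability, had the highest mean of the receptor genes in both groups, although Grin2b was above it in Rest_het replicate 2. It lies on chromosome 3 from 80681450 to 80802835. Its level was 347, 344 and 312 CPM in the WT libraries and 280.5, 258 and 277 CPM in the Rest_het libraries. Every Rest_het value was below every WT value, and the spread within each group was smaller than the gap between the group means. The means were 334.5 ± 19.2 and 272 ± 11.96 CPM (SD, n = 3). The log2 fold change was -0.30 with SE 0.08, and its interval from -0.45 to -0.14 left out 0. The edgeR adjusted p was 0.328 (0.00528 unadjusted) and the DESeq2 adjusted p 0.123, so the difference did not pass over all genes. Over 17 other settings its log2 fold change ran from -0.35 to -0.23 and its adjusted p from 0.123 to 0.66.

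Markers of neurons were set beside Gria2, since the cells that express it are neurons. Of 12 markers of deep and upper layer neurons, all 12 tested lay below 0, beside 7553 of all 15385 tested genes. Of these 12, 0 were called, beside 0.123% of all tested genes. The groups of 4 (33.3%) did not overlap, all lower in Rest_het, beside 8.94% of all tested genes. The summed level of the 12 ran from 6027 to 6701 CPM in WT and from 5332 to 5992 CPM in Rest_het. Its largest part in each library was Pou3f2, at 1568 to 2152 CPM, which overlapped between the groups. Pou3f3, the next largest, was lower in Rest_het without overlap. Of 12 young neuron markers 8 lay below 0 and 0 were called. The groups of 5 (41.7%) did not overlap, all lower in Rest_het, beside 8.94% of all tested genes. An edgeR p under 0.05 before adjustment belonged to 4 (33.3%), all lower, beside 4.72% of all tested genes. Map2 and Snap25 had log2 fold changes of -0.60 and -0.39, beside -0.30 for Gria2, while 4 of the 12 lay above 0. The sums of the 12 overlapped, with 12440 to 13730 CPM in WT and 10940 to 14010 CPM in Rest_het. Ncam1 was the largest part of each sum, at 7049 to 9245 CPM. None of the markers in either list was at 0 in all libraries. Gria2 reads were also divided by the reads of each of the 12 young neuron markers. The Rest_het ratios lay below all WT ratios for 6 markers, above them for 1 and overlapped them for 5. The ratio to Tubb3, a neuronal tubulin, was 0.352, 0.337 and 0.314 in WT and 0.286, 0.283 and 0.342 in Rest_het, which overlap. Against Gap43, a growth cone protein, it was 1.195, 1.22 and 1.04 in WT and 0.834, 0.625 and 1.003 in Rest_het, which do not. Against Map2, a dendritic protein, it was higher in each Rest_het library, with 0.418 to 0.513 in WT and 0.551 to 0.599 in Rest_het. These examples were chosen after their values were seen, and the result depends on the marker. The part of the neuronal markers in the Gria2 values was not tested.

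Gria1, which encodes GluA1, the subunit known for its regulated delivery to synapses, differed in the other direction. Gria1 lies on chromosome 11 from 57011387 to 57330244. The WT libraries measured 40.3, 39.7 and 38.8 CPM and the Rest_het libraries 47.1, 42.6 and 53.2 CPM. The WT values were close together, the Rest_het values were wider apart, and the groups did not overlap. The log2 fold change was 0.27 (SE 0.10, edgeR adjusted p 0.386, or 0.0264 unadjusted). It ran from 0.19 without Rest_het replicate 3 to 0.34 without Rest_het replicate 2 or with library size alone as the scaling, and its direction held in all 17 settings. The ratio of Gria1 reads to Tubb3 reads was 0.0389 to 0.0408 in WT and 0.0467 to 0.0657 in Rest_het, which did not overlap. Over the 12 young neuron markers the Gria1 ratio was higher without overlap for 5 and overlapped for 7.

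Gria3 and Gria4, which encode the remaining AMPA subunits, showed overlapping groups. Gria3, on chromosome X from 41400854 to 41678601, measured 31.5, 28.7 and 25.5 CPM in WT and 25.7, 24.9 and 25.9 CPM in Rest_het (log2 fold change -0.16, SE 0.10, edgeR adjusted p 0.538). WT replicate 1 held the highest Gria3 value, and without it the log2 fold change was -0.09. Gria4, on chromosome 9 from 4417896 to 4796234, measured 10.3, 10.2 and 9.42 CPM in WT and 9.95, 12.6 and 8.66 CPM in Rest_het (log2 fold change 0.06, SE 0.16, edgeR adjusted p 0.916). Rest_het replicate 2 held the highest Gria4 value, and without it the log2 fold change was -0.10.

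Because Gria2 and Gria1 differed in opposite directions, the makeup of the AMPA subunit RNA was compared within each library, which needs no scaling between libraries. Levels were divided by the summed length of a gene's exons in kilobases to give RPKM, the CPM per kilobase. Gria2 made up 66.0, 66.6 and 65.7% of the summed Gria1 to Gria4 RPKM in WT and 60.1, 58.9 and 58.2% in Rest_het. Gria1 made up 19.7, 19.8 and 21% in WT and 25.98, 25.0 and 28.8% in Rest_het. Neither pair of groups overlapped. Gria2 was already lower and Gria1 already higher in every Rest_het library, and shares of a common sum move against each other. The separation of these shares, and of the read ratio given below, thus restates the single-gene values and is no separate result. The mean Gria2 share was 66.1 ± 0.472% and 59.1 ± 0.974% (SD, n = 3), and the mean Gria1 share 20.2 ± 0.729% and 26.6 ± 1.95% (SD, n = 3). Gria3 held 8.47 to 9.43% in WT and 8.59 to 8.96% in Rest_het, and Gria4 held 4.84 to 4.89% and 4.49 to 7.08%. The plain ratio of Gria2 reads to Gria1 reads was 8.62, 8.67 and 8.04 in WT and 5.95, 6.06 and 5.20 in Rest_het. The summed AMPA subunit level overlapped between the groups, with 33.8, 33.2 and 30.6 RPKM in WT and 30.02, 28.2 and 30.6 RPKM in Rest_het. No test was run on the shares, whose size depends on the length used: with coding lengths Gria2 held 81.3% in WT and 76.8% in Rest_het.

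**Figure D2:**
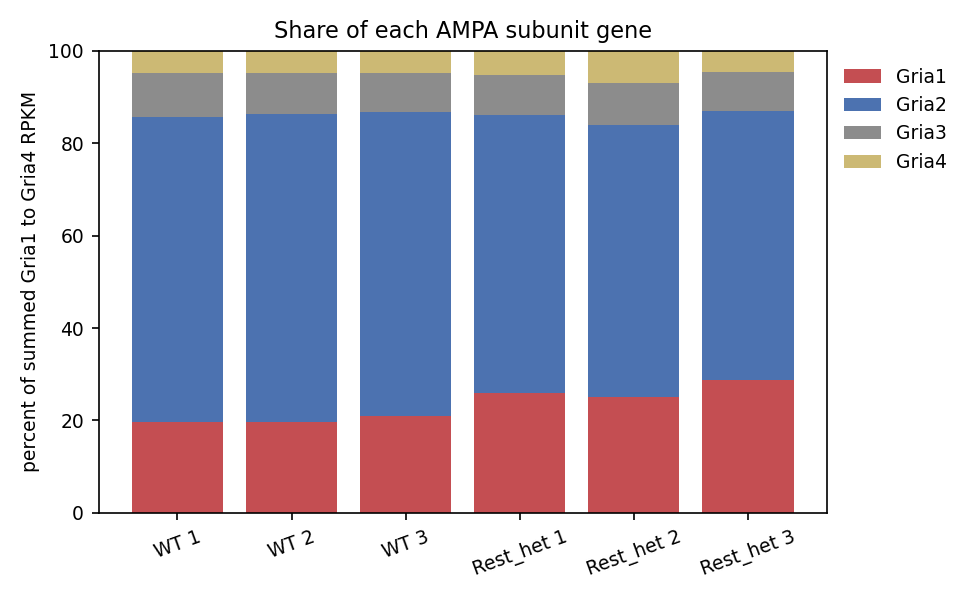
Percent of the summed Gria1 to Gria4 RPKM taken by each AMPA subunit gene, 1 stacked bar per library. The Gria2 share is 65.7 to 66.6% in the 3 WT and 58.2 to 60.1% in the 3 Rest_het libraries, and the Gria1 share is 19.7 to 21% and 25.0 to 28.8%.

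Genes most like Gria2 over the 6 libraries were sought by Pearson correlation of log2 CPM among 7882 genes with a mean of at least 10 CPM. Tnik, a kinase of the postsynaptic density, had r = 0.997 and measured 69.8, 68.3 and 64.4 CPM in WT and 59.1, 55.1 and 57.8 CPM in Rest_het. Sub1, a transcriptional coactivator, had r = 0.997 and Ercc5, an endonuclease of DNA repair, 0.996. A coefficient above 0.95 was reached by 63 genes. All of these points share the same 6 libraries and their depths.

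Grin1 encodes GluN1, without which no NMDA receptor forms. Grin1 lies on chromosome 2 from 25291181 to 25319187. Its reads were few, 33, 35 and 41 in WT and 26, 28 and 15 in Rest_het, or 1.58, 1.85 and 2.11 CPM and 1.41, 1.55 and 0.797 CPM. Counted this way the groups did not overlap, Rest_het being lower, with a log2 fold change of -0.56 (SE 0.32, edgeR adjusted p 0.517). The antisense gene Grin1os overlaps Grin1, and the unstranded column leaves out reads that fall in both. With the strand columns added up, which keeps those reads, Grin1 had 1.70 times as many reads. Its level was then 2.15, 3.11 and 3.45 CPM in WT and 2.76, 3.05 and 1.38 CPM in Rest_het, so the groups overlapped and the log2 fold change was -0.28. Without Rest_het replicate 3, the lowest library, it was -0.31 in the unstranded counts. The library marks no strand, so reads of Grin1 and Grin1os cannot be told apart.

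Grin2b, the main GluN2 gene of embryonic cortex, showed 2 levels that did not follow the genotype. It lies on chromosome 6 from 135713233 to 136173511. Its level was 44.8 CPM in WT replicate 1, against 312 and 295.5 CPM in WT replicates 2 and 3. Among the Rest_het libraries it was 330 CPM in replicate 2, against 35.6 and 31.2 CPM in replicates 1 and 3. Thus 1 WT and 2 Rest_het libraries were low and the other 3 high, with no value between. The range over the 6 libraries was 3.40 on the log2 scale, where the median over 8276 genes with at least 10 CPM was 0.396 and 35 genes (0.423%) had a larger one. The smaller of its 2 within-group ranges, that of WT, was 2.79, and 17 genes had a larger smaller range. The genotype comparison of Grin2b therefore had a wide error: the log2 fold change was -0.72 (SE 0.97, edgeR adjusted p 0.798), and DESeq2 gave no adjusted p. Without Rest_het replicate 2 it was -2.69 and without WT replicate 1 -1.20. It was -0.36 without WT replicate 2, -0.43 without WT replicate 3, -0.26 without Rest_het replicate 1 and -0.25 without Rest_het replicate 3, and none of these passed.

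Several measures moved with the level of Grin2b. The 3 libraries low in Grin2b had the 3 highest sums of choroid plexus and cortical hem markers: 61.5 CPM in WT replicate 1 and 187 and 377 CPM in Rest_het replicates 1 and 3, against 5.80, 8.60 and 14.0 CPM in WT replicates 2 and 3 and Rest_het replicate 2. Of the 10 markers of that list 9 were tested. In Rest_het against WT 8 were above 0, beside 7832 of all 15385 tested genes, and 0 were called, beside 0.123%. An edgeR p under 0.05 before adjustment belonged to 3 (33.3%), all higher in Rest_het, beside 6.98% of all tested genes. The groups of 2 (22.2%) did not overlap, each higher in Rest_het, beside 10.4%. Ttr, a thyroid hormone carrier abundant in choroid plexus, carried most of the sum in the 3 libraries low in Grin2b, with 53.0, 169 and 357 CPM. It measured 2.27, 3.09 and 5.49 CPM in the others, and Folr1, a folate receptor of that tissue, was at 0 in WT replicates 2 and 3. Clic6 and Rspo2 of that list also split this way, while Otx2, Kl, Wnt2b, Lmx1a and Prox1 overlapped between these libraries. Prox1 was highest in Rest_het replicate 2, a library high in Grin2b, at 4.38 CPM. Meningeal markers summed to 252, 166 and 274 CPM in the libraries low in Grin2b and to 98.3, 131.5 and 98.97 CPM in the others. Other marker sums split the libraries in the same way. Thalamus markers summed to 278 to 315 CPM in the libraries low in Grin2b and to 200.4 to 220.2 CPM in the others. The largest part was Tcf7l2, at 179 to 214 CPM in the low and 92.6 to 139 CPM in the other libraries. Lhx9 and Barhl2, of the same list, were instead highest in Rest_het replicate 2, a library high in Grin2b. Microglia markers summed to 48.8 to 56.6 and 41.5 to 45.4 CPM, and oligodendrocyte lineage markers to 39.9 to 40.9 and 24.95 to 35.6 CPM. Not every marker followed its sum. P2ry12, of the microglia list, was lower in every Rest_het library, and Cnp, of the oligodendrocyte lineage list, was higher in each. The sum of the apical progenitor markers ran the opposite way, with 1844 to 1908 and 1964 to 2139 CPM. Its largest part was Fabp7, at 841 to 877.5 CPM in the low and 982 to 1107 CPM in the other libraries. Sox9, Slc1a3, Vim, Pax6, Nes and Sox2, of the same list, each overlapped between these libraries. Gria2 did not split the libraries this way. The ratio of Grin2b to Gria2 reads was 0.129, 0.127 and 0.113 in the low libraries and 0.906, 0.946 and 1.28 in the high ones. The part of these other cells and tissues in the level of Grin2b was not tested.

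**Figure D3:**
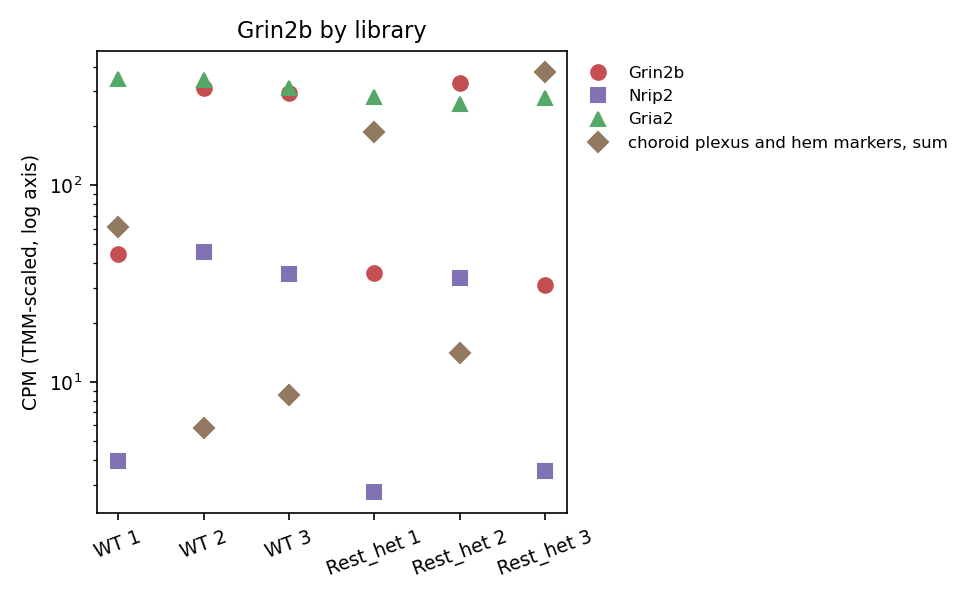
TMM-scaled CPM (log axis) of Grin2b, Nrip2 and Gria2, with the summed choroid plexus and cortical hem markers, in each of the 6 libraries. Grin2b and Nrip2 are low where the marker sum is high (WT 1, Rest_het 1 and Rest_het 3), and Gria2 stays between 258 and 347 CPM.

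The genes most like Grin2b were Polr3gl, a subunit of RNA polymerase III (r = 0.998), Nrip2, a protein that interacts with nuclear receptors (0.992), and Naa10, an N-terminal acetyltransferase (0.987), each over 6 libraries. Polr3gl and Naa10 varied little, Polr3gl from 16.2 to 22.7 CPM. Nrip2 split as widely as Grin2b, with 3.97, 45.9 and 35.3 CPM in WT and 2.76, 33.9 and 3.51 CPM in Rest_het. It lies on chromosome 6 as well, 7.30 Mb from Grin2b. Neighbours of Grin2b were then examined, a choice made after these values were seen. Within 20 Mb, 13 of 205 genes (6.34%) had an absolute r of at least 0.9 with Grin2b, beside 1.69% of genes on other chromosomes. Within 10 Mb it was 10 of 84 genes (11.9%). Of the 13, 3 ran with Grin2b (Nrip2, Gm44190 and Emp1) and 10 ran against it. Emp1, a membrane protein whose gene lies 0.330 Mb away, measured 3.06, 6.54 and 10.2 CPM in WT and 2.81, 9.42 and 4.04 CPM in Rest_het. Neighbours within 20 Mb of Gria2 reached that r with Gria2 in 4.04%, beside 4.94% elsewhere. Correlations over 6 libraries with 2 levels are a description, and the points share the libraries.

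**Figure D4:**
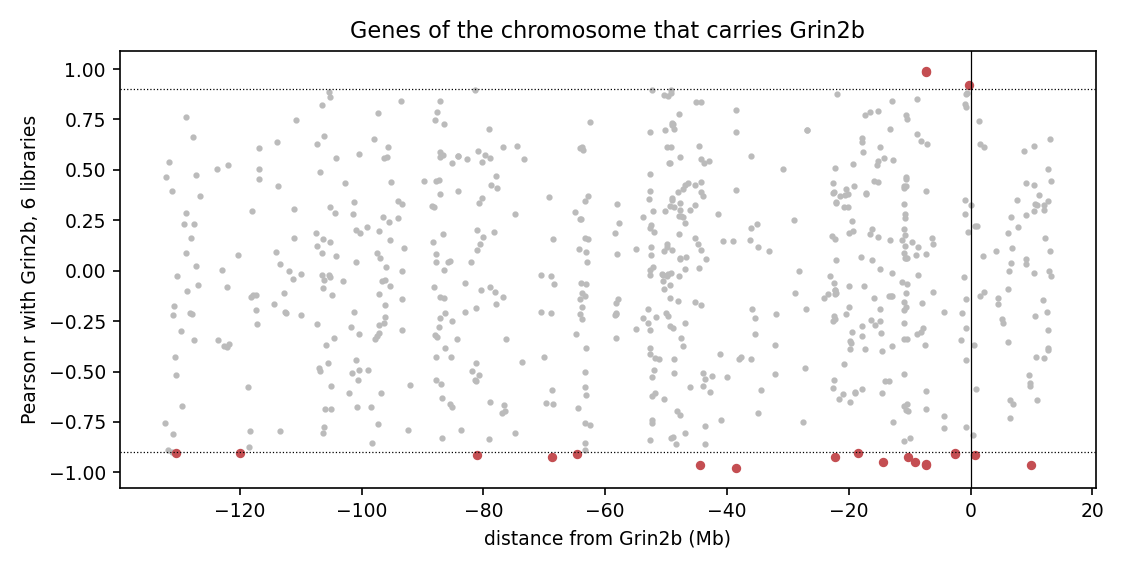
Pearson r of log2 CPM with Grin2b over 6 libraries (vertical axis) against the distance from Grin2b in Mb (horizontal axis), 1 point per gene of chromosome 6 with a mean of at least 1 CPM. Points with an absolute r of at least 0.9 are larger and red, and 13 of the 205 genes within 20 Mb are among them.

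Grin2a, whose product confers faster channel closing than that of Grin2b, was low. The gene spans 9567898 to 9995560 on chromosome 16 and measured 3.73, 1.95 and 3.45 CPM in WT and 3.35, 4.49 and 2.44 CPM in Rest_het. The groups overlapped, with a log2 fold change of 0.17, SE 0.32 and an edgeR adjusted p of 0.865, and its sign turned when replicate 2 of either group was left out (-0.07 each). Of the summed RPKM of Grin2a, Grin2b and Grin2d, Grin2b made up 85.5 to 98.8%. Grin2a made up 10.04, 11.2 and 9.45% in the libraries low in Grin2b and 0.857, 1.58 and 1.84% in the others.

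Grin2d, known from interneurons and the brainstem, was near the limit of these data. The gene spans 45831883 to 45878378 on chromosome 7 and had 8, 6 and 9 reads in WT and 7, 5 and 6 in Rest_het. The exact Poisson interval of its lowest count, 5, runs from 1.62 to 11.7 reads and covers the other counts. Fitted with no count filter, its log2 fold change was -0.25 (SE 0.60, edgeR adjusted p 0.91). These intervals cover counting error only, and PCR copies are among the reads.

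Grin3a encodes GluN3A, which lowers the calcium flow of the receptors it joins and is known from young neurons. The gene spans 49661611 to 49845744 on chromosome 4. It measured 1.34, 1.21 and 2.27 CPM in WT and 2, 3.55 and 2.07 CPM in Rest_het. WT replicate 3 lay above 2 of the Rest_het libraries, so the groups overlapped. The log2 fold change was 0.66 (SE 0.36, edgeR adjusted p 0.493), and it was 0.35 without Rest_het replicate 2.

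**Figure D5:**
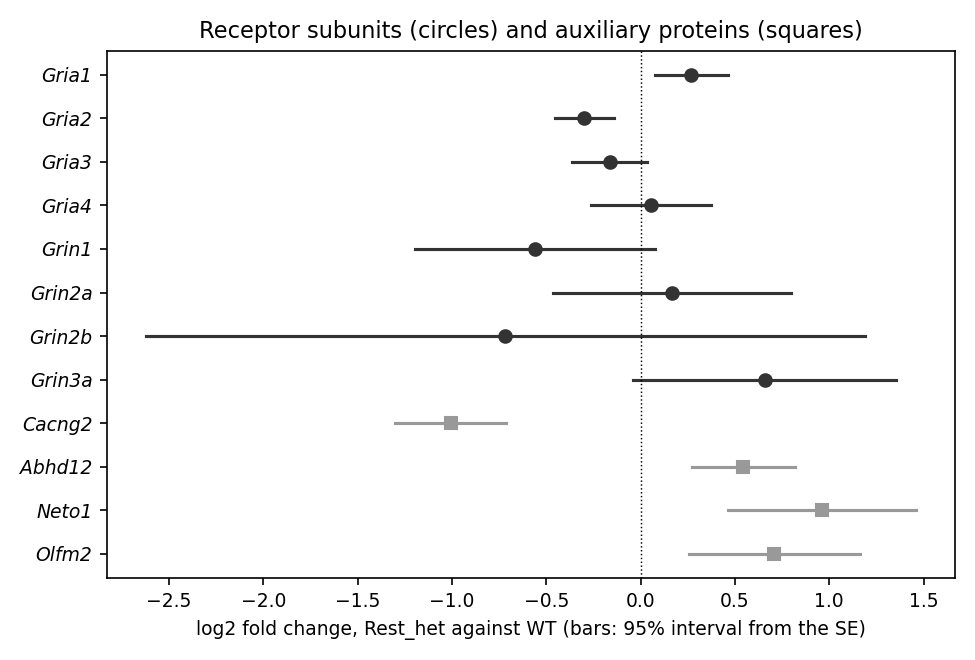
Log2 fold change of Rest_het against WT with bars of 1.96 SE on each side, for the 8 tested receptor genes (circles) and the 4 auxiliary protein genes with the smallest p (squares). Gria1 and Gria2 lie on opposite sides of 0, Grin2b has the widest bar, and Cacng2 lies lowest at -1.01.

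Per length, the order of the WT means was Gria2 at 21.5 RPKM, Grin2b at 8.75, Gria1 at 6.55, Gria3 at 2.90, Gria4 at 1.59, Grin1 at 0.190, Grin2a at 0.170, Grin3a at 0.131 and Grin2d at 0.058 RPKM. The WT ranges of Grin2b and Gria1 overlapped, as did those of Grin1 and Grin2a and those of Grin2a and Grin3a, so these neighbours are not ordered beyond their spread. The WT range of Grin2b, 1.805 to 12.5 RPKM, also covered that of Gria3, and those of Grin1 and Grin3a overlapped. Between Gria2 and the next gene the ranges did not overlap in WT, nor between Gria1, Gria3, Gria4 and Grin1. In Rest_het the mean of Grin2b was 5.32 RPKM and that of Gria1 7.89 RPKM, and the range of Grin2b, 1.26 to 13.3 RPKM, covered that of Gria1. Grin1, the obligatory subunit, thus stood at a small part of the level of Grin2b in the high libraries, 0.190 and 0.218 against 12.5 and 11.9 RPKM in WT replicates 2 and 3. That Grin1 value leaves out the reads shared with Grin1os.

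Other receptor subunits were at or near the limit of detection. Among Grin2c, Grin3b and Grid1, Grid1 alone passed the filter on low counts, with 1.86, 2.32 and 1.905 CPM in WT and 2.05, 2.83 and 2.07 CPM in Rest_het (log2 fold change 0.19, edgeR adjusted p 0.792). Without Rest_het replicate 2 its log2 fold change was 0.03, and without WT replicate 2 it was 0.30. With no filter Grin3b had 8 reads in the WT libraries and 33 in the Rest_het libraries together, with an edgeR adjusted p of 0.244. Grin2c had 3 and 1 reads.

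Proteins that assemble and escort AMPA receptors were compared as a list, which also holds Neto1 and Neto2, known from kainate receptors. Of its 25 genes 24 were tested and 0 were called by edgeR. At an unadjusted p under 0.05 there were 6 (25%, beside 11.7% of all tested genes), 4 higher and 2 lower. The groups of 7 genes (29.2%, beside 19.3%) did not overlap. Neto1 and Neto2 are in both of these counts, with edgeR p of 0.00532 and 0.0336 before adjustment. The median log2 fold change was 0.089. Cacng2, which encodes stargazin, the transmembrane protein that brings AMPA receptors to the synapse, measured 58.2, 44.6 and 46.6 CPM in WT and 24.1, 29.3 and 21.04 CPM in Rest_het. Every Rest_het value was below every WT value. The log2 fold change was -1.01 with SE 0.15, an interval from -1.30 to -0.71 and an edgeR adjusted p of 0.0924 (0.000144 unadjusted), outside the threshold of 0.05. DESeq2 called it with an adjusted p of 2.59e-06, and edgeR did with no count filter (0.000375). Over the 17 settings its log2 fold change ran from -1.14 to -0.88 and its adjusted p from 2.59e-06 to 0.331. The ratio of Cacng2 to Gria2 reads was 0.168, 0.130 and 0.149 in WT and 0.0858, 0.113 and 0.0760 in Rest_het, without overlap, and its ratios to each of the 12 young neuron markers were lower in Rest_het without overlap.

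The next smallest p-values in that list belonged to genes that were higher in each Rest_het library than in any WT library. Abhd12, a lipid hydrolase, measured 9.46, 9.07 and 11.4 CPM in WT and 15.7, 14.7 and 13.1 CPM in Rest_het (log2 fold change 0.54, edgeR adjusted p 0.32). Neto1, an auxiliary subunit of kainate receptors that also binds NMDA receptors, measured 1.72, 1.32 and 1.29 CPM against 2.38, 3.16 and 2.92 CPM (0.96, 0.328). Olfm2, a secreted olfactomedin that associates with AMPA receptors, measured 10.9, 20.9 and 20.4 CPM against 28.8, 31.5 and 25.0 CPM (0.71, 0.36), and 0.46 without WT replicate 1. None of these passed.

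Scaffold and trafficking proteins of the synapse gave 0 calls among 33 of 35 genes tested. The unadjusted p was under 0.05 for 3 (9.09%, beside 11.7% of all tested genes), all higher, the groups of 6 (18.2%, beside 19.3%) did not overlap, and the median log2 fold change was 0.0076. These were Lin7a, a PDZ protein that links receptors to motors (log2 fold change 0.45, edgeR adjusted p 0.36), Pick1, which binds the tail of GluA2 (0.63, 0.399), and Lin7b (1.01, 0.40). Pick1 measured 13.2 CPM in WT replicate 1 and 26.6 and 27.2 CPM in WT replicates 2 and 3, against 35.6, 35.5 and 32.6 CPM in Rest_het. Without WT replicate 1 its log2 fold change was 0.36. Lin7c, a PDZ protein of the same kind, was next, with 194, 189 and 177 CPM in WT and 167, 169.5 and 168 CPM in Rest_het (-0.15, 0.455).

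Among kinases, phosphatases and other signalling proteins at glutamate receptors, 23 of 24 genes were tested and 0 were called, with a median log2 fold change of 0.118. An unadjusted p under 0.05 belonged to 4 (17.4%, beside 11.7% of all tested genes), 3 higher and 1 lower, and the groups of 4 (17.4%, beside 19.3%) did not overlap. Ppp3cb, a catalytic subunit of calcineurin, measured 114, 98.2 and 92.7 CPM in WT and 84.8, 81.6 and 75.8 CPM in Rest_het (log2 fold change -0.33, edgeR adjusted p 0.351). Ptpn5, the phosphatase STEP that acts on NMDA receptors, had a log2 fold change of 0.79 (0.36) with overlapping groups, and Cdk5, a kinase of neurons, 0.26 (0.366) without overlap. Camk2a, the kinase of synaptic plasticity, measured 3.78, 3.11 and 3.30 CPM in WT and 4.38, 6.32 and 4.41 CPM in Rest_het (0.57, 0.397), and its log2 fold change was 0.37 without Rest_het replicate 2. Rasgrf1, an exchange factor that binds NMDA receptors, is the other listed gene whose promoter matched RE1 with at most 1 mismatch, and was looked up for that reason. It measured 2.39, 2.43 and 4.74 CPM in WT and 3.14, 3.38 and 4.46 CPM in Rest_het, which overlap (0.20, 0.827).

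The enzymes that edit glutamate receptor RNA were tested as Adar, Adarb1 and Adarb2. Adarb1, which edits the calcium site of Gria2, measured 8.56, 8.86 and 7.36 CPM in WT and 7.89, 9.53 and 7.22 CPM in Rest_het, with a log2 fold change of -0.01 and SE 0.16. Adar measured 0.03 and Adarb2 0.06 on the log2 scale, and all 3 genes had overlapping groups and an edgeR adjusted p of at least 0.967. The interval for Adarb1 ran from -0.32 to 0.31. Editing itself needs reads and was not analysed here.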

How the data were processed

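Per the labels' protocols, cDNA primed with oligo dT was amplified, tagmented with Nextera XT and sequenced in pairs. The method marks no strand and holds no molecular identifiers. Read counts per gene were deposited as whole numbers. The submitters' processing notes name STAR 2.5.2a and the build GRCm38.p4. Counts came from the unstranded column, and rows that name no gene were left out. A deposited table of normalized signal served in 1 alternative (limma, log2 of the value plus 1). The same notes name DESeq2, with no step or version given. Symbols matched 48349 of 48709 gene IDs. Positions and lengths came from GENCODE M21 (GRCm38).

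The test was the quasi-likelihood test of edgeR 4.0.16 in R 4.3.3 (TMM scaling, genotype alone, filterByExpr with a minimum count of 10 and a total of 15). Adjusted p are Benjamini-Hochberg over 15385 genes, with a threshold of 0.05. SE is the log2 fold change over the root of F, and intervals are 1.96 SE on each side. The biological coefficient of variation was 0.183. The pipeline was tested on simulated data. Alternatives were DESeq2 1.42.0, limma 3.58.1 (voom, and on the deposited values), other scalings and filters, a looser threshold of 0.1, the replicate number as a block, Xist as a covariate, the summed strand columns, other lengths, and each library left out.

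Named genes are the members, per list the called genes and up to 4 with the smallest p, and the 3 genes most like Gria2 and Grin2b (no predicted genes). Rasgrf1, Neto2 and neighbours of Grin2b were added after their values were seen. For 1 listed gene no result is reported here. The members and lists were chosen with earlier results of these data known. Plots used Python 3.11.15 and matplotlib 3.10.9.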

Additional observations from a re-analysis of the deposited data

Results flagged for a closer look

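Outside the gene counts, the 3 Rest_het libraries held 43 Cre-ERT2 reads in all, where the 3 WT libraries held 0. This signal in sequences that no comparison uses marks a difference between the groups that the genotype labels do not name. It stands beside every comparison of the receptor genes, and its part in them cannot be told apart from that of the genotype.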

How the results depend on the processing

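No receptor gene passed an adjusted p of 0.05 under any of 17 settings. Directions held for 6 of the 8 tested genes. The exceptions were Grin2a, which turned without replicate 2 of either group (-0.068 and -0.070; range over left-out libraries -0.070 to 0.365), and Gria4, which turned without Rest_het replicate 2 (range -0.10 to 0.18). Over all genes, DESeq2 called 74 higher and 57 lower, and edgeR without a count filter 61 and 46, against 10 and 9. Leaving out each library in turn gave 7 to 21 higher and 4 to 15 lower. The deviations of same-numbered libraries had correlations of 0.011, 0.037 and -0.144. The labels do not say whether equal numbers pair libraries, and low correlations cannot decide it, since paired libraries need not deviate together. With the replicate block edgeR called 6 higher and 0 lower, where 571 genes were lower at an unadjusted p under 0.05. The Gria2 share depended on the length: 69.0% in WT and 63.0% in Rest_het with the longest transcript, 81.3% and 76.8% with coding length, and 81.1% and 76.5% with no division by length. The Gria1 share was 15.3% and 20.6%, 9.39% and 13.1%, and 9.61% and 13.4% in the same order, so both differences kept their sign. The 3 editing enzymes lay near 0 and turned. With each library left out, Adar ran from -0.13 to 0.18, Adarb1 from -0.12 to 0.081 and Adarb2 from -0.56 to 0.36. Adarb1 was 0.058 with library size alone, and Adarb2 was -0.022 with voom, -0.013 on the deposited values and -0.028 with the replicate block. The cause was not tested. Low counts limit Grin1, Grin2d and Grin3a most.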
